A study of Homo sapiens with 12 samples.

Results

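The genes described here carry the human symbol ZNF followed by digits and had a clear array signal in 2 pancreatic cancer cell lines. Of 425 such symbols that were the single symbol of a probe set, 238 had a mean signal of 30 or more over all 12 arrays, and these 238 genes were taken, among 19775 genes on the arrays. They were chosen by their mean signal over the same arrays that are compared here, so the level of a gene is a description and not a finding. Just inside the bound lay ZNF124 at a mean signal of 30.5, ZNF222 at 30.4 and ZNF230 at 30.1. Just outside it lay ZNF117 at 29.9, ZNF717 at 29.8 and ZNF341 at 29.4. The other 187 ZNF symbols lay under the bound, and 138 of them were bright enough to be tested.

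RNA was hybridised to Affymetrix oligonucleotide arrays, with 3 arrays in each of 4 groups. BxPC-3 is a line that came from a primary pancreatic tumour, and AsPC-1 is a line that came from ascites. Both are human lines from a public cell bank. All cells, controls included, were held overnight in 2.5% foetal calf serum. The treated groups then received PMA (phorbol 12-myristate 13-acetate, an activator of protein kinase C) at 1 µM for 4 h, dissolved in DMSO at 0.1%, and the control groups were untreated. The labels and the study's design text do not state a vehicle for the controls. If they had none, PMA and DMSO cannot be told apart, and PMA below means PMA in DMSO against untreated cells. The 3 arrays of a group came from cells of 3 passages, numbered 7, 9 and 11 for BxPC-3 and 8, 10 and 12 for AsPC-1. Each line is 1 culture history. The p-values thus rest on the spread between passages within a group, pooled over the 4 groups of both lines. Pairing of treated and control arrays by passage was used only in a separate fit. A level on these arrays cannot tell fewer cells with a transcript from less of it in each cell. The design set out to compare PMA with untreated cells in each line and the lines with each other, in a study of invasion.

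Most ZNF proteins hold tandem zinc fingers of the Cys-Cys-His-His kind, in which each finger can read a few bases of DNA. In the largest group the fingers are joined to a KRAB domain, which binds the scaffold TRIM28 and through it the histone methyltransferase SETDB1 and HP1 proteins, and so silences chromatin, with transposable elements among the best known targets. Many of these genes lie in arrays of near relatives, above all on chromosome 19. The symbol covers other proteins as well, among them spindle, RNA, ubiquitin and SUMO factors that bind no DNA motif.

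The epithelial identity of the cells was checked first. Markers of epithelia were high in both lines, with KRT18 at 4297 ± 378 in untreated BxPC-3 and 9544 ± 795 in untreated AsPC-1 (SD, n = 3) and EPCAM at 1787 ± 127 and 4655 ± 124. CDH1 went the other way, at 3503 ± 396 in untreated BxPC-3 and 862 ± 150 in untreated AsPC-1. Markers of other cell types differed between the lines in both directions. AsPC-1 carried a fibroblast and a leukocyte marker, lumican (LUM, 2478 ± 881) and lysozyme (LYZ, 2240 ± 383), which lay at 52.3 ± 16.1 and 2.38 ± 1.48 in untreated BxPC-3. The fibroblast collagen gene COL3A1 (51.8 ± 1.72 against 4.72 ± 5.6) and the acinar gene CEL (51.7 ± 5.41 against 4.15 ± 3.45) were higher in untreated BxPC-3, and COL1A1 stood at 55.7 ± 16.8 there and at 31.9 ± 11 in AsPC-1 without a call. Of other leukocyte genes, CD3E was called higher in untreated AsPC-1, at 22.5 ± 2.58 against 9.9 ± 0.856. CD14 stood at 41.9 ± 21.7 there and at 18.1 ± 5.62 in untreated BxPC-3 without a call. The defining markers PTPRC of leukocytes and PDGFRB of fibroblasts had group means under 6 in both lines, treated or not. AsPC-1 PMA replicate 1 stood furthest from its group. It had a mean correlation of 0.921 with the other arrays of its group across genes, against 0.945 and 0.946 for those. The control array of the same passage, AsPC-1 control replicate 1, was also the lowest of its group, at 0.950 against 0.960 and 0.962. Fits without AsPC-1 PMA replicate 1 keep that control array. The 3′ over 5′ ratio of the ACTB control probe sets, which grows as RNA degrades, was 2.56, 2.95 and 4.14 in untreated BxPC-3 and 1.84, 1.99 and 2.02 after PMA in that line, and it lay between 1.79 and 2.32 on the AsPC-1 arrays. The GAPDH ratio lay between 0.987 and 1.12 on all 12 arrays.

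The 238 genes spanned mean signals from 30.1 to 2515, with a median of 81.9 and quartiles of 52.4 and 154. A mean of 100 or more was reached by 94 genes and 500 or more by 10. Brightest was ZNF207, a spindle assembly factor that binds the checkpoint protein BUB3, at a mean signal of 2515. It was followed by ZNF706, a small protein with a single zinc finger, at 2006, by ZNF146, made of fingers alone and known to be amplified in pancreatic carcinomas, at 1651, by ZNF664 at 917 and by ZNF121 at 814. Signals of different probe sets depend on their probes, so this order is not an order of transcript number. In 71 genes the chosen probe set bears an s or x mark, which says that it can also bind related transcripts, and for such genes the value may be shared with a relative. Of the 238 genes, 170 had a mean of 30 or more in each of the 4 groups. Of the others, 48 were under 30 in AsPC-1 PMA, 30 in AsPC-1 control, 27 in BxPC-3 PMA and 7 in BxPC-3 control. Genes of that kind entered through the groups where they were high, and counts over all 238 genes are therefore descriptions.

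In BxPC-3, PMA lowered 36 of the 238 ZNF genes and raised 1, the epidermal differentiation factor ZNF750. The fallers ranged from regulators of cell fate such as ZNF488 to KRAB zinc fingers such as ZNF112 and ZNF436, and their log2 changes, on the scale of log2(signal + 3), lay between -3.22 and -0.76. Falls were 15.1% and rises 0.420% of the ZNF genes (limma, adjusted p under 0.05, adjustment over all 16099 genes tested). Over all genes tested, 3.30% fell and 2.52% rose. Among the 10434 genes tested that also had a mean signal of 30 or more, 4.72% fell and 3.49% rose. The median log2 difference of the ZNF genes was -0.38, against 0.00 over all genes tested and -0.06 over those at 30 or more. A difference below 0 was seen in 177 genes and above 0 in 61. The PMA arrays lay wholly below the control arrays for 121 ZNF genes and wholly above for 17, where the background was 21.9% of all genes tested lower and 17.0% higher. Among the 10434 genes at 30 or more, 3098 lay wholly below and 2042 wholly above, a larger part than over all genes tested. The ACTB ratio was lower on each PMA array than on each control array of this line, as given above, and its part in these falls was not tested.

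**Figure D1:**
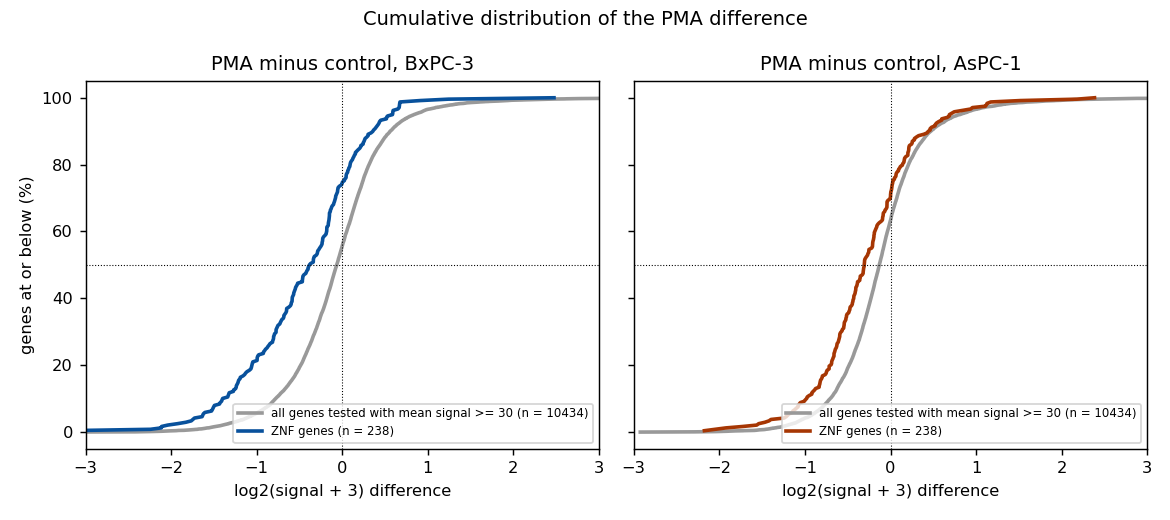
Cumulative share of genes (y axis, percent) at or below each log2(signal + 3) difference between PMA and control (x axis), for the 238 ZNF genes (coloured) and for all 10434 genes tested with a mean signal of 30 or more (grey), in BxPC-3 on the left and AsPC-1 on the right. The ZNF curve lies to the left of the grey curve over most of the range in both lines, with medians of -0.38 and -0.31 against -0.06 and -0.13.

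ZNF750, a target of p63 that promotes squamous differentiation, had signals of 38.6, 50.8 and 58.6 in untreated BxPC-3 and 242, 320 and 295 after PMA. The groups were well apart, and the rise was 2.47 ± 0.37 on the log2 scale (SE, n = 3, limma adjusted p = 0.00199). In AsPC-1 its signal did not pass 5.25 on any array, at 2.27 ± 1.18 in control and 1.96 ± 2.85 after PMA (SD, n = 3). The next differences above 0 by size, among genes whose groups did not overlap, did not pass the test. They were ZNF800 at 1.24 ± 0.51 (adjusted p = 0.178), ZNF335 at 0.91 ± 0.49 and ZNF787 at 0.66 ± 0.25.

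ZNF488, a repressor known from oligodendrocyte differentiation, had the largest fall. Its signals of 46.9, 61.2 and 63.9 in control cells became 1.63, 10.6 and 1.19 after PMA, a log2 change of -3.22 ± 0.71 (adjusted p = 0.0174). All 3 treated values lie near the bottom of the array's range, so the size of the change depends on the pseudocount. The call was lost in 5 of 23 alternatives, each of which left out a BxPC-3 array. In AsPC-1 the signals were 112, 48.3 and 58.0 in control and 50.7, 1.64 and 12.7 after PMA, and the groups overlapped.

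ZNF436, a KRAB zinc finger, went from 173, 237 and 230 to 43.2, 48.5 and 48.2, a fall of 2.11 ± 0.27 (adjusted p = 0.000657). ZNF449, which joins its fingers to a SCAN domain, went from 85.4, 113 and 99.8 to 22.5, 19.5 and 23.4, a change of -2.04 ± 0.25 (adjusted p = 0.000615). In both, the lowest control array was above the highest treated array by a wide margin, and the spread within each group was small. ZNF112, a KRAB zinc finger of the chromosome 19 arrays, went from 127 ± 12.9 to 24.5 ± 2.62 (SD, n = 3), a change of -2.24 ± 0.38 (adjusted p = 0.00413). ZNF462, a very long protein with many fingers, went from 97.3, 72.3 and 91.7 to 21.8, 35.1 and 23.9, a change of -1.61 ± 0.25 (adjusted p = 0.00269). ZNF112, ZNF436, ZNF449, ZNF462 and ZNF750 kept their calls in BxPC-3 under every alternative that gave them a value.

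Other large falls were those of ZNF395, a factor that binds the promoter of the huntingtin gene, and ZNF652, a repressor that partners the corepressor CBFA2T3. ZNF395 changed by -1.83 ± 0.37, from 200 ± 26.7 to 54.5 ± 10.6, on a probe set with an s mark, and was not called when only probe sets without such a mark were used. ZNF652 went from 337, 344 and 413 to 101, 124 and 120, a change of -1.64 ± 0.38, and other probe sets of the gene changed by -0.38 and -2.29. Its call was lost when any 1 of the 6 BxPC-3 arrays was left out. The KRAB zinc finger ZNF347 changed by -1.75 ± 0.42, from 90.8 ± 4.56 to 25.6 ± 7.66, and was near the bottom of the range in AsPC-1, at 5.23 ± 4.17. The ZNF347 call was lost in 7 of 23 alternatives, namely a pseudocount of 1 and each BxPC-3 array left out. Of the brighter genes, ZNF302 fell from 424 ± 38.3 to 166 ± 12.7, ZNF367 from 564 ± 86.6 to 239 ± 54.3, ZNF639 from 424 ± 10.4 to 211 ± 4.01 and ZNF12 from 510 ± 80.1 to 299 ± 26.0. ZNF302, ZNF367, ZNF639 and ZNF12 were picked as examples after their values were seen.

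For 11 of the called genes in BxPC-3 there were other probe sets with a mean signal of 30 or more, 15 in all, and all 15 moved the same way as the chosen one. Because the spread was estimated over all 12 arrays, leaving out AsPC-1 PMA replicate 1 changed the BxPC-3 count too, to 68 falls and 5 rises, against a background that grew to 9.17% lower and 5.70% higher over all genes and to 13.3% and 7.90% over those at 30 or more. The fit with the passage as a replicate block gave 56 falls and 3 rises, with 6.06% of all genes lower and 4.16% higher, and 8.82% and 5.89% of those at 30 or more. The 6 BxPC-3 arrays alone gave 95 falls and 11 rises, with 13.5% lower and 8.50% higher. All 37 genes called in the fit to all arrays were called in each of these 3 fits as well. Leaving out any 1 of the 6 BxPC-3 arrays cut the count to between 14 and 19 genes, the lowest without control replicate 3, and all of those were among the 37.

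**Figure D2:**
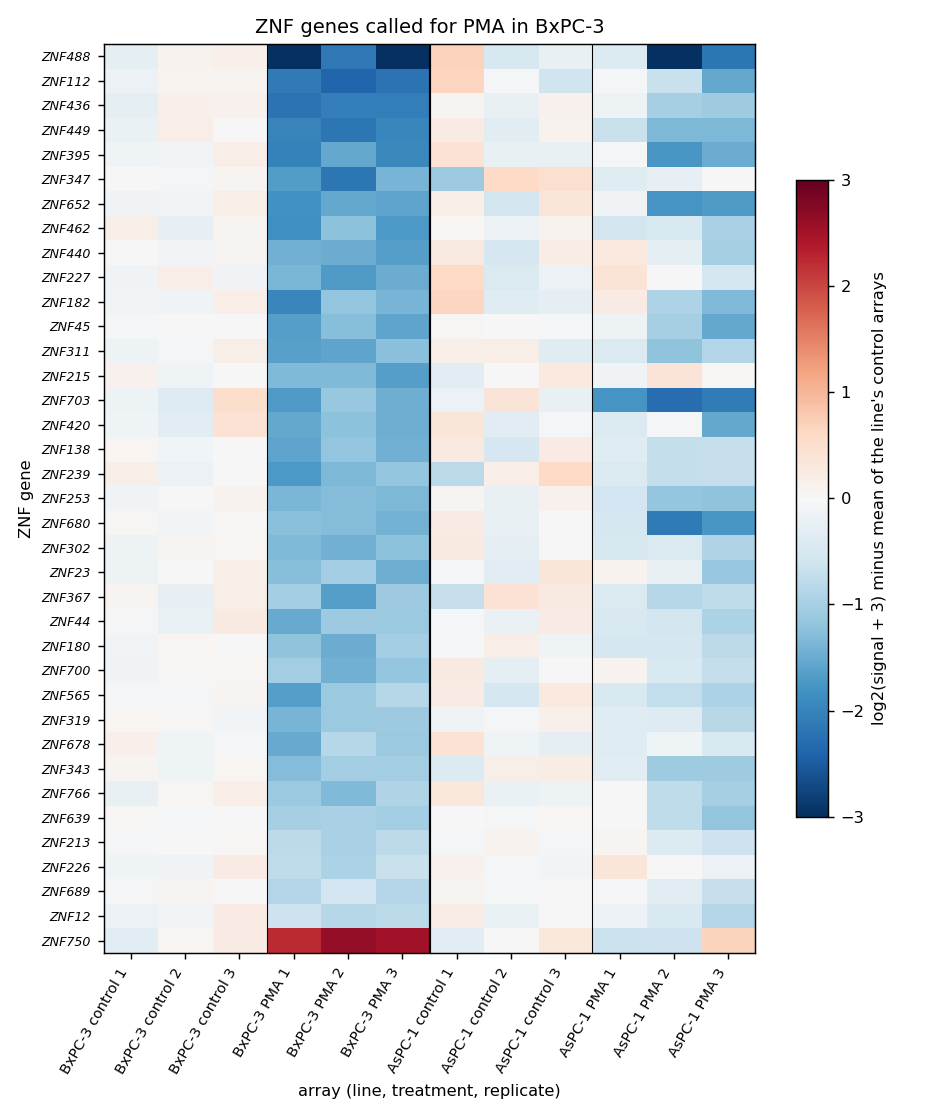
The 37 ZNF genes called for PMA in BxPC-3 (rows, by size of change) on each of the 12 arrays (columns). The colour is log2(signal + 3) minus the mean of the line's own control arrays, with values beyond -3 or 3 shown at the end of the scale. The 3 BxPC-3 PMA columns are blue for all 36 fallers and red for ZNF750, and among the AsPC-1 PMA columns replicate 1 is paler than replicates 2 and 3 for most rows.

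In AsPC-1, 7 ZNF genes were called for PMA in the fit to all arrays. ZNF281, ZNF335 and ZNF697 rose, and ZNF703, ZNF680, ZNF77 and ZNF449 fell. With the AsPC-1 arrays alone 0 ZNF genes were called, so all 7 calls depend on fitting the BxPC-3 arrays as well. In the fit to all arrays, rises were 1.26% and falls 1.68% of the ZNF genes. Over all genes tested the shares were 1.24% higher and 0.721% lower, and among genes at 30 or more they were 1.85% and 1.04%, so the ZNF shares lay near the background. The median log2 difference of the ZNF genes was -0.31, against -0.10 over all genes tested and -0.13 over those at 30 or more, with 167 genes below 0. The PMA arrays lay wholly below control for 29 ZNF genes and wholly above for 11, against 8.37% and 6.06% of all genes tested. Among the 10434 genes at 30 or more, 1038 lay wholly below and 707 wholly above.

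ZNF703, a corepressor of the NET family known as an oncogene of luminal breast cancer, had the largest fall among the called genes. Its signals were 337, 499 and 326 in control and 110, 75.6 and 86.8 after PMA, a change of -2.04 ± 0.27 (adjusted p = 0.00268). The treated arrays all lay far below the controls, replicate 1 included. The gene also fell in BxPC-3, from 174, 149 and 282 to 57.9, 87.2 and 68.0, by 1.43 ± 0.27 (adjusted p = 0.00886). That call was lost without BxPC-3 control replicate 3, the highest control array. The difference of response between the lines was 0.61 ± 0.39 and did not pass the test (adjusted p = 0.709).

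ZNF281, a Kruppel-type factor known from pluripotency and from the epithelial to mesenchymal transition, had signals of 362, 414 and 509 in control and 795, 1083 and 939 after PMA. The rise was 1.13 ± 0.18 (adjusted p = 0.00824), and 2 other probe sets of the gene rose by 0.94 and 1.15. In BxPC-3 its signals were 301, 293 and 314 in control and 272, 258 and 209 after PMA, a difference of -0.30 ± 0.18 (adjusted p = 0.38).

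ZNF335, a subunit of a histone H3 methyltransferase complex, had signals of 7.08, 35.3 and 9.61 in control and 42.1, 119 and 123 after PMA. Its change was 2.38 ± 0.49 (adjusted p = 0.03), and the call was lost in 11 of 23 alternatives. ZNF697 had signals of 19.4, 18.6 and 25.5 in control and 34.5, 178 and 186 after PMA, a change of 2.18 ± 0.46 (adjusted p = 0.0337) that was lost in 13 of 23 alternatives. In both genes replicate 1 after PMA stayed nearest to the controls. ZNF680 fell by 1.47 ± 0.34 (adjusted p = 0.0462), ZNF77 by 1.22 ± 0.27 (adjusted p = 0.0411) and ZNF449 by 1.12 ± 0.25 (adjusted p = 0.0418), and each of these calls was lost in 16 or 17 alternatives. The largest difference above 0 without a call, among genes whose groups did not overlap, was that of ZNF274, which binds the 3′ ends of other ZNF genes and recruits SETDB1 there, at 1.11 ± 0.28 (adjusted p = 0.0664), with signals of 169, 138 and 128 in control and 187, 439 and 380 after PMA.

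**Figure D3:**
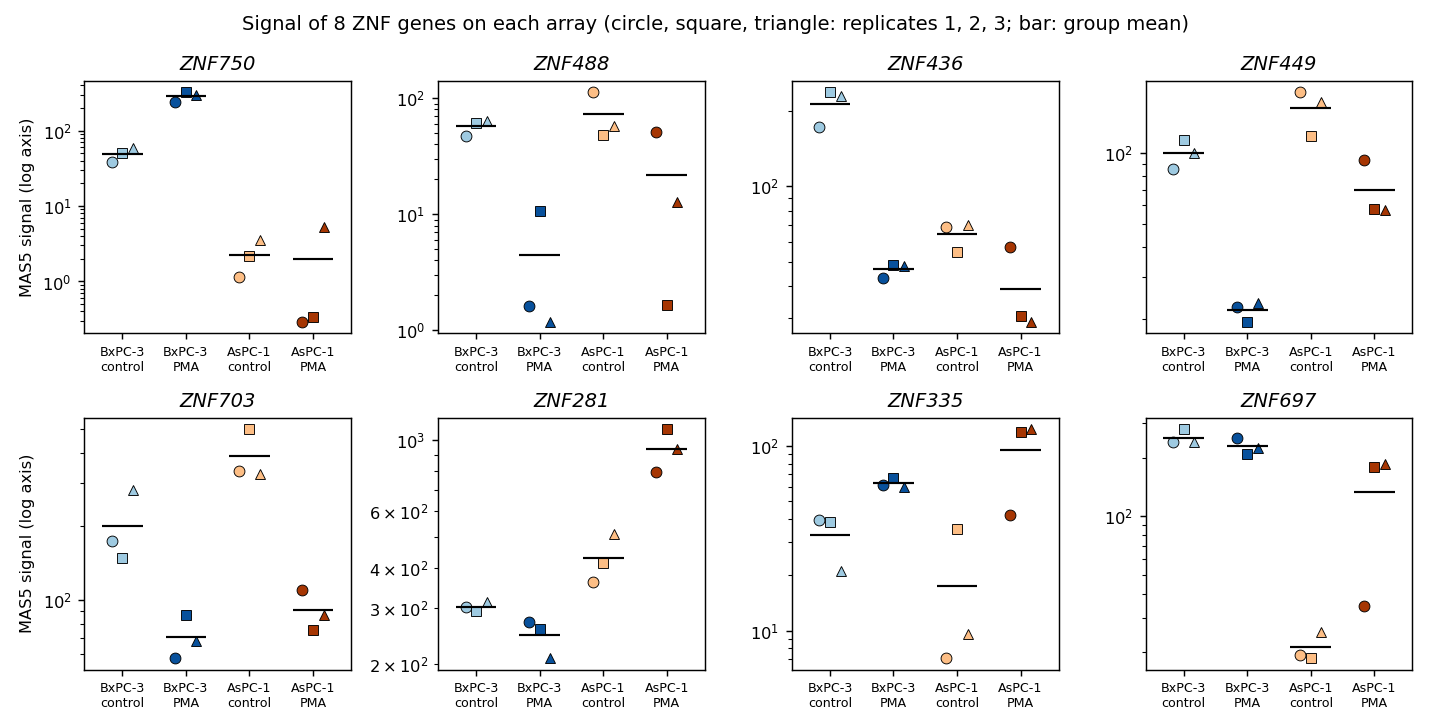
MAS5 signal (y axis, log scale, a separate range in each panel) of 8 ZNF genes on each array, by group (x axis). Points are arrays, with circle, square and triangle for replicates 1, 2 and 3, and bars are group means (n = 3). ZNF750 stands at 242 to 320 after PMA in BxPC-3 and under 6 in AsPC-1, ZNF703 is low after PMA in both lines, and ZNF697 after PMA in AsPC-1 is at 34.5 in replicate 1 and at 178 and 186 in the others.

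AsPC-1 PMA replicate 1 decided most of the count in this line. Its median shift over the ZNF genes from the mean of the controls was -0.07, against -0.32 and -0.47 for replicates 2 and 3. The number of ZNF genes more than 1 log2 unit below control was 8 on replicate 1 (3.36%), 39 on replicate 2 (16.4%) and 57 on replicate 3 (23.9%). Among all genes at 30 or more these shares were 3.73%, 11% and 12.1%. In BxPC-3 the 3 PMA arrays were alike, with median shifts of -0.39, -0.30 and -0.45 and 50, 53 and 59 genes past that bound (21.0%, 22.3% and 24.8%), where 6.43%, 7.26% and 6.45% of all genes at 30 or more were.

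Without AsPC-1 PMA replicate 1, 65 ZNF genes fell and 20 rose in AsPC-1, or 27.3% and 8.40%, and the background grew to 13.5% lower and 6.09% higher over all genes. Over genes at 30 or more, as these are, it grew to 19.5% lower and 8.74% higher, so the share of rises lay at the background and that of falls above it by less than against all genes. Leaving out any other 1 of the 12 arrays gave 1 to 6 calls, with 1 without AsPC-1 PMA replicate 2. ZNF432 shows the pattern, with signals of 64.2, 58.6 and 86.3 in control and 55.9, 429 and 339 after PMA. Its change was 1.52 ± 0.53 (adjusted p = 0.165) with all arrays and 2.42 without replicate 1 (adjusted p = 1.7e-06). ZNF394, which has both a SCAN and a KRAB domain, stood at 149, 177 and 164 in control and at 149, 550 and 552 after PMA. ZNF623 stood at 181, 110 and 142 in control and at 161, 26.5 and 21.2 after PMA. In these 3 genes, named after their values were seen, replicate 1 lay at the control level while replicates 2 and 3 lay far from it. The fit with the passage as a replicate block, in which treated and control arrays of a passage are paired, gave 18 falls and 5 rises, against 2.83% lower and 2.79% higher over all genes and 4.21% and 4.18% over those at 30 or more.

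The falls in both lines, from fits that share only the spread estimate, were ZNF449, ZNF680 and ZNF703. They are 8.33% of the 36 falls in BxPC-3 and 75% of the 4 in AsPC-1. Over all genes at 30 or more, shared falls were 7.52% of those in BxPC-3 and 34.3% of those in AsPC-1. The BxPC-3 share thus lay near the background. Without AsPC-1 PMA replicate 1 the lines shared 41 falls, which are 60.3% of 68 and 63.1% of 65, and 4 rises, those of ZNF121, ZNF394, ZNF706 and ZNF800. With the passage block they shared 12 falls, which are 21.4% of 56 and 66.7% of 18. Over all genes at 30 or more, shared falls with the block were 21.4% of those in BxPC-3 and 44.9% of those in AsPC-1. Without AsPC-1 PMA replicate 1 they were 62.0% of the falls in BxPC-3 and 42.2% of those in AsPC-1. In both fits the share among BxPC-3 falls thus lay near that of other genes. The 4 shared rises without that array came from 5 in BxPC-3 and 20 in AsPC-1. Over all genes at 30 or more, shared rises without it were 44.1% of those in BxPC-3 and 39.8% of those in AsPC-1. ZNF800, a repressor known from enteroendocrine differentiation, stood in BxPC-3 at 45.1 ± 7.99 in control and at 107, 110 and 112 after PMA. In AsPC-1 it stood at 52.0, 65.6 and 86.1 and then at 46.7, 258 and 294, again with replicate 1 at the control level.

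The interaction contrast called 2 ZNF genes for a different response to PMA between the lines, 1 higher and 1 lower in BxPC-3 (0.420% each). Over all genes tested 0.317% had a higher and 0.174% a lower response in BxPC-3. Among genes at 30 or more the shares were 0.422% and 0.249%, so the ZNF count lay near the background. For ZNF750 the response was 2.68 ± 0.52 higher in BxPC-3 (adjusted p = 0.0425). Its signal in AsPC-1 was under the 40th percentile of each array, treated or not, so the size of that difference rests on values near the bottom of the range and on the pseudocount. For ZNF281 it was lower there, by -1.43 ± 0.26 (adjusted p = 0.0316). The ZNF750 call was lost in 14 of 21 alternatives and the ZNF281 call in 12 of 22, and leaving out 1 array gave between 0 and 15 calls, with 15 without AsPC-1 PMA replicate 1. The difference for ZNF697, at -2.33 ± 0.65, did not pass (adjusted p = 0.224) and stood at -3.10 without AsPC-1 PMA replicate 1 (adjusted p = 2.7e-05). The other 3 genes that the naming rule took here, none past the test, were ZNF276 at -1.95 ± 0.71, ZNF581 at 1.16 ± 0.72 and ZNF738 at 0.96 ± 0.43. For the remaining ZNF genes a call in 1 line and none in the other does not show that the lines differ.

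ZNF genes stood higher in BxPC-3 than in AsPC-1 before treatment more often than lower. Of the 238 genes, 96 were higher and 6 lower, or 40.3% and 2.52%. Over all genes tested the shares were 16.8% and 15.6%, and over those at 30 or more they were 22.1% and 20%. The median log2 difference was 0.51, against -0.08 over all genes tested and 0.02 over those at 30 or more. Among the 170 genes at 30 or more in every group, 61 were higher and 3 lower. The summed signal of the 238 genes was 45038, 44532 and 47649 on the untreated BxPC-3 arrays and 31269, 29747 and 30875 on the untreated AsPC-1 arrays. After PMA it was 37486, 39503 and 36890 in BxPC-3 and 28654, 31734 and 30138 in AsPC-1. BxPC-3 thus lay above AsPC-1 on every array, treated or not, and its treated arrays lay below its controls. These sums rest on the same signals that chose the genes, so they are a description and add no support. In AsPC-1 control 30 of the genes were under 30, against 7 in BxPC-3 control. Bright genes weigh most, such as ZNF146 at 3009 ± 111 in BxPC-3 control and 759 ± 260 in AsPC-1 control. The untreated BxPC-3 arrays also had the highest ACTB ratios, and their part in the difference between the lines was not tested. Over the marker lists, summed signal lay between 1543 and 3247 for 5 fibroblast genes in untreated AsPC-1 and between 146 and 225 in untreated BxPC-3, and between 1975 and 2756 in AsPC-1 for 4 leukocyte genes, against 27 to 38. LUM and LYZ made up most of both sums in AsPC-1, while COL3A1 went the other way, and the part of these differences was not tested either.

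Several of the largest differences set a clear signal against values at the bottom of the range, and their sizes and order on the log2(signal + 3) scale depend on the pseudocount. Where every array of the dim group was under its own 40th percentile, a lower bound was taken against that percentile. ZNF704 stood at 525, 538 and 688 in untreated BxPC-3 and 4.22, 17.5 and 11 in untreated AsPC-1, a difference of 5.51 ± 0.33 (adjusted p = 3.24e-08). ZNF503, the other NET family corepressor beside ZNF703, stood at 286, 335 and 364 in BxPC-3 and at 5.11, 9.83 and 10.6 in AsPC-1, a difference of 4.88 ± 0.26. ZNF503 and ZNF703 thus lay on opposite sides, since ZNF703 was lower in BxPC-3, by -0.96 ± 0.27 (adjusted p = 0.0162). ZNF736 at 4.94, ZNF551 at 3.73, ZNF347 at 3.68 and ZNF697 at 3.42 completed the 6 that were named. By the bound, ZNF736 was at least 12.5-fold and ZNF347 at least 9.82-fold higher in BxPC-3. ZNF146, amplified in some pancreatic carcinomas as said above, stood at 3009 ± 111 in BxPC-3 and 759 ± 260 in AsPC-1 (SD, n = 3), a difference of 2.05 ± 0.23.

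The 6 genes lower in BxPC-3 included ZNF521, a cofactor known from blood and neural progenitors, with signals of 3.83, 0.375 and 2.82 in BxPC-3 and 385, 129 and 153 in AsPC-1 and a difference of -5.29 ± 0.59 (adjusted p = 1.18e-05). ZNF438 stood at 3.39 ± 1.22 and 86.9 ± 20.9, a difference of -3.80 ± 0.32. Both were under the 40th percentile on every untreated BxPC-3 array, and by the bound ZNF521 was at least 23.1-fold and ZNF438 at least 10-fold lower there. ZNF467, known from the choice between bone and fat cell fates, differed by -2.37 ± 0.49, ZNF706 by -1.70 ± 0.24, ZNF703 as given and ZNF26 by -0.71 ± 0.22. In ZNF521 the AsPC-1 control of replicate 1 was the highest array by far.

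**Figure D4:**
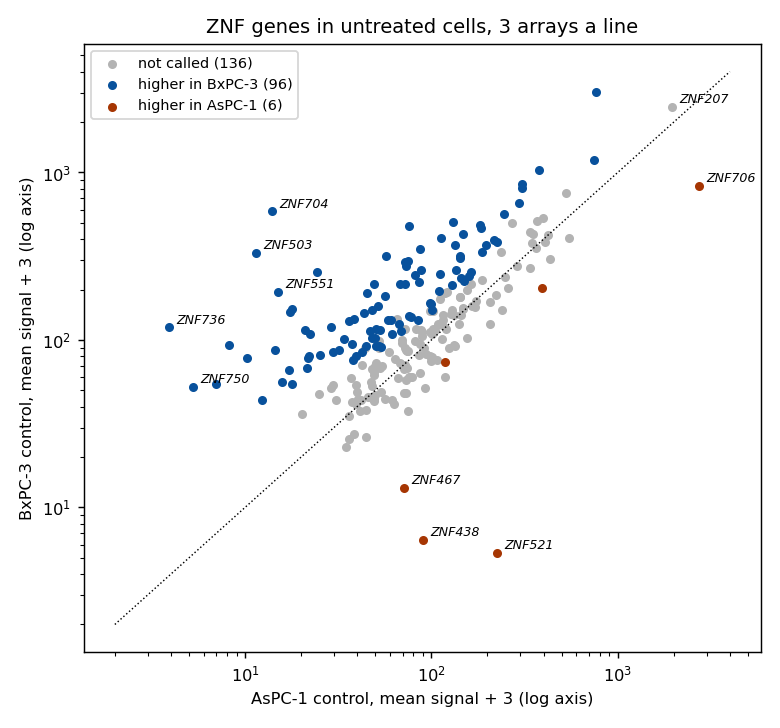
Mean signal + 3 of each of the 238 ZNF genes in untreated AsPC-1 (x axis) and untreated BxPC-3 (y axis), n = 3 arrays a line, both axes logarithmic, with the line of equal signal dotted. Blue points are the 96 genes called higher in BxPC-3 and brown points the 6 called higher in AsPC-1, and the blue points lie above the dotted line over the whole range of signal.

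After PMA, 83 ZNF genes (34.9%) were higher and 13 (5.46%) lower in BxPC-3, against 18.3% and 15.2% of all genes tested. Among genes at 30 or more the shares were 24.1% higher and 20.4% lower. ZNF750 differed by 6.0 ± 0.37, with AsPC-1 under the 40th percentile on every array, and was at least 31.5-fold higher in BxPC-3 by the bound. ZNF704 differed by 4.96 and ZNF503 by 4.57, with AsPC-1 near the bottom of the range, and on the other side stood ZNF521 at -4.45, ZNF438 at -3.76 and ZNF467 at -2.41. The median difference of the 238 genes was 0.46 after PMA. Each line comparison shares its arrays with the PMA comparisons given above.

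Small lists of members were set apart by known role, with earlier results of these data known, and are described by counts. Such lists cannot be tested against a background share, and the shares that follow only give the scale. Among all genes at 30 or more, 4.72% were lower and 3.49% higher in BxPC-3, and 1.04% and 1.85% in AsPC-1. In a list of 13, 1 gene is already 7.69%. Of 13 members known as regulators of transcription and chromatin, 1 fell in BxPC-3 (ZNF462) and 2 rose in AsPC-1 (ZNF281 and ZNF335), with median differences of -0.18 and -0.22. Without AsPC-1 PMA replicate 1 these counts were 3 falls in BxPC-3 and 4 rises and 4 falls in AsPC-1. The shares among genes at 30 or more grew in that fit too, to 13.3% lower and 7.90% higher in BxPC-3. In AsPC-1 they grew to 19.5% lower and 8.74% higher. ZNF827, which brings the NuRD complex to telomeres, had one of the larger differences of that list without a call, at -1.04 ± 0.44 in BxPC-3 and -1.42 ± 0.44 in AsPC-1 (adjusted p = 0.188 and 0.121). Its AsPC-1 signals were 237, 184 and 192 in control and 201, 41.8 and 46.8 after PMA. Of 7 members known from epithelia and tumours, 1 rose (ZNF750) and 3 fell (ZNF488, ZNF395 and ZNF703) in BxPC-3, and in AsPC-1 the count was 1 fall (ZNF703). The AsPC-1 count was 3 falls both with the replicate block and without PMA replicate 1. In those fits 4.21% and 19.5% of genes at 30 or more were lower in AsPC-1. The breast cancer oncogene ZNF217 was not called in either line, at 0.38 ± 0.22 in BxPC-3 and 0.25 ± 0.22 in AsPC-1. ZNF185, a LIM domain protein of the actin cytoskeleton, stood at 473 ± 22.7 in untreated BxPC-3 and 72.5 ± 26.8 in untreated AsPC-1 and was not called for PMA.

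None of 13 members that work on RNA, ribosomes, SUMO, ubiquitin or the spindle was called for PMA in either line (limma). At an unadjusted p under 0.05 they numbered 2 in BxPC-3 and 0 in AsPC-1. The replicate block gave 1 rise and 1 fall in BxPC-3, as did leaving out AsPC-1 PMA replicate 1, which gave 2 rises and 3 falls in AsPC-1. Of genes at 30 or more, the block called 8.82% lower and 5.89% higher in BxPC-3. Without AsPC-1 PMA replicate 1 these shares were 13.3% and 7.90% in BxPC-3 and 19.5% and 8.74% in AsPC-1. ZNF207, the brightest of all, stood at 2464 ± 116 and 3153 ± 107 before and after PMA in BxPC-3, a difference of 0.36 ± 0.20 (adjusted p = 0.355). ZNF451, a SUMO ligase, had the most uneven values, at 24.2, 389 and 394 in control and 2.22, 576 and 661 after PMA in AsPC-1. Both low arrays were replicate 1, which is passage 8. In BxPC-3 it stood at 545, 345 and 599 and then at 163, 227 and 79.9, a difference of -1.73 ± 1.48. ZNF318 at -1.62 ± 0.52 (adjusted p = 0.0848) and ZNF365 at 0.67 ± 0.38 had the other large differences of that list in BxPC-3.

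Genes of the proteins through which KRAB zinc fingers act were called at about the background share. Of 19 such genes, 1 (5.26%) fell in BxPC-3, against 4.72% of genes at 30 or more, and 0 were called in AsPC-1, where 3 had an unadjusted p under 0.05. The faller was MPHOSPH8, the chromatin reader of the HUSH silencing complex, at 399, 369 and 447 in control and 200, 209 and 207 after PMA, a change of -0.97 ± 0.23 (adjusted p = 0.0256) that was lost in 7 of 23 alternatives. TRIM28 itself stood at 827, 843 and 756 and then at 915, 946 and 936 in BxPC-3, a difference of 0.21 ± 0.31 (adjusted p = 0.771). In AsPC-1 TRIM28 stood at 455, 234 and 232 and then at 392, 170 and 172, a difference of -0.36 ± 0.31. The HP1 gene CBX5 varied widely, at 11.7, 253 and 609 in AsPC-1 control and 11.5, 366 and 378 after PMA, and was not called in either line. As for ZNF451, both low arrays were replicate 1. UHRF1, which guides DNA methylation, differed by -0.32 ± 0.39 in BxPC-3 and -0.85 ± 0.39 in AsPC-1. The median differences of the 19 genes were -0.32 and -0.20. Without AsPC-1 PMA replicate 1 the counts were 5 falls in BxPC-3 (26.3%) and 8 in AsPC-1 (42.1%), with no rise in either, against 13.3% and 19.5% of genes at 30 or more. With the replicate block they were 3 and 0, against 8.82% and 4.21% of genes at 30 or more.

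Zinc-finger genes of other names, ZFP, ZSCAN and ZKSCAN, were set beside the ZNF genes. Of 23 such genes with a mean of 30 or more, 5 fell (21.7%, against 4.72% of genes at 30 or more) and 1 rose in BxPC-3, with a median difference of -0.85, and 0 fell and 1 rose in AsPC-1, with a median of -0.37. Without AsPC-1 PMA replicate 1 there were 12 falls and 1 rise in BxPC-3 and 12 falls and 3 rises in AsPC-1. With the replicate block there were 10 falls in BxPC-3 and 2 in AsPC-1. Of genes at 30 or more, 13.3% fell in BxPC-3 and 19.5% in AsPC-1 without that array, and 8.82% and 4.21% with the block. Of the 138 tested ZNF genes under the bound, 11 fell and 0 rose in BxPC-3, with a median of -0.41. The falls were 7.97% of these dim genes, against 0.706% of all tested genes under 30, of which 0.724% rose. Without AsPC-1 PMA replicate 1 they were 18, or 13.0%, against 1.61% of all such genes lower and 1.64% higher.

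All 238 genes could be placed among their neighbours by gene order in the RefSeq table of GRCh38.p14. No zinc-finger gene was adjacent to 91 of them, and 147 had 1 or 2 adjacent. The share that fell in BxPC-3 was 14.3% of the 91 and 15.6% of the 147, and the median differences were -0.19 and -0.47. Of 104 genes within runs of 5 or more consecutive zinc-finger genes, 15.4% fell, with a median of -0.57. Untreated BxPC-3 was higher for 34.1% of the genes with no such neighbour and for 52.9% of those in the runs. The share of falls thus lay within 2 percentage points across these classes, all near the 15.1% of the 238. Neighbours of this kind are often near copies, so their probe sets may share signal.

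One run of 20 zinc-finger genes held 10 of the 238, namely ZNF45, ZNF112, ZNF180, ZNF222, ZNF224, ZNF226, ZNF227, ZNF230, ZNF234 and ZNF283. In BxPC-3 all 10 had differences below 0, with a median of -1.11, and ZNF45, ZNF112, ZNF180, ZNF226 and ZNF227 fell. ZNF45 stood at 254, 263 and 264 in control and at 80.7, 106 and 84.8 after PMA, and ZNF227 went from 214 ± 26.1 to 72.6 ± 8.09. ZNF224, a KRAB repressor of the aldolase A gene, missed the threshold at -1.63 ± 0.47 (adjusted p = 0.0587). In AsPC-1 the median of the 10 was -0.32, and 9 of the 10 were higher in untreated BxPC-3 than in untreated AsPC-1, with a median of 1.98, on the same control arrays. This run and the next were picked after their values were seen. Another run, with ZNF134, ZNF211, ZNF419, ZNF550, ZNF551, ZNF552, ZNF586, ZNF587, ZNF776 and ZNF814, held 10 genes of which 0 fell and 9 were higher in untreated BxPC-3. Of these 10, 9 had differences below 0 in BxPC-3, with a median of -0.53. Over the 238 genes 15.1% fell and 40.3% were higher in untreated BxPC-3, against 4.72% and 22.1% of genes at 30 or more. Other runs went otherwise. In the run of ZNF136, 3 of 9 genes fell and 1 was higher in untreated BxPC-3, and in that of ZNF107, 2 of 5 fell and 1 was higher.

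PMA is known to activate AP-1, CREB and EGR factors through kinases, and the promoters were searched for 3 letter patterns named after them. RefSeq promoters of GRCh38.p14, from 250 bases before to 50 after the start, matched 202 of the 238 genes. The AP-1 letters TGANTCA, with any base taken at N, were searched on both strands, so not every match need be a sequence that AP-1 binds. They were in 14 of the 202 (6.93%), against 7.76% of all 27305 promoters and 5.39% of those of genes tested. The cAMP-response letters TGACGTCA were in 11 (5.45%), against 1.98% and 2.87%, and the EGR letters GCGTGGGCG were in 2 (0.990%), against 0.784% and 1.24%. The 3 motifs do not overlap one another as written. Of 29 fallers in BxPC-3 with a promoter entry, 3 (10.3%) held the AP-1 letters, 0 the cAMP-response letters and 1 (3.45%) the EGR letters. A match of letters is a description and not a site. The promoters below show 3 fallers that hold a motif and ZNF335, a riser in AsPC-1 that holds the cAMP-response letters, each chosen after values were seen, 5′ to 3′ on the gene's strand, with the motif in capitals. They lie at chr19:44164850-44165149 (plus strand, ZNF226), chr10:43574567-43574866 (minus strand, ZNF239), chr11:6926176-6926475 (plus strand, ZNF215) and chr20:45972154-45972453 (minus strand, ZNF335).
ZNF226: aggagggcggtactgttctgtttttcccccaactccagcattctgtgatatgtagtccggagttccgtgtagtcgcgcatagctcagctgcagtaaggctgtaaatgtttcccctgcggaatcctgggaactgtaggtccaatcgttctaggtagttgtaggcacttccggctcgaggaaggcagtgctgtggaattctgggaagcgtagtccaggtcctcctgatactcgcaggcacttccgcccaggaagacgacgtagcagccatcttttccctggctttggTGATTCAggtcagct
ZNF239: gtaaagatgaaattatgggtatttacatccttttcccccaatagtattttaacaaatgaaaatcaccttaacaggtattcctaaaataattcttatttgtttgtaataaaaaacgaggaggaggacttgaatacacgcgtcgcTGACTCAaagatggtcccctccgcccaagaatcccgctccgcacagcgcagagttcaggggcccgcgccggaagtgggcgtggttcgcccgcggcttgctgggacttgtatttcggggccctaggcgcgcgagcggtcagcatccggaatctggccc
ZNF215: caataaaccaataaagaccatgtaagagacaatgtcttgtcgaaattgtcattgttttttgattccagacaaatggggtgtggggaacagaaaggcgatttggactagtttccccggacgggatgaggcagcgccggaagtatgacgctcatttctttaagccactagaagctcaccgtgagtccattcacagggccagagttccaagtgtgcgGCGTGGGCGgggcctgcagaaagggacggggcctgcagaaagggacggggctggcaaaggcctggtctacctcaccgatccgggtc
ZNF335: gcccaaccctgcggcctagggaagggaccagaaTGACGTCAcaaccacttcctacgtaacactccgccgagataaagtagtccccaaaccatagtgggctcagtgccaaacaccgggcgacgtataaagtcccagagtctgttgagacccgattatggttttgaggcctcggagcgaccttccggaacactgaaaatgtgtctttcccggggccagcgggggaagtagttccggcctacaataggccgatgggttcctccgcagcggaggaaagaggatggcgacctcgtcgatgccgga
In ZNF226 the AP-1 letters, with T at N, lie after the start. In ZNF239, with C at N, they lie 107 bases before it. The EGR letters of ZNF215 lie 36 bases before the start and the cAMP-response letters of ZNF335 217 bases before it. In BxPC-3 ZNF226 went from 282, 289 and 366 to 181, 160 and 193, a change of -0.80 ± 0.21. ZNF239 went from 101, 79.5 and 89.9 to 25.3, 33.6 and 38.6, a change of -1.40 ± 0.32, and ZNF215 from 77.6 ± 7.40 to 27.1 ± 3.81, a change of -1.43 ± 0.25. Each of these 3 genes was separated from its controls on every array.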

How the data were processed

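The authors deposited 1 table of linear signal intensity, with 54675 probe sets and 12 arrays, made with MAS5 per the submitters' processing notes. Its version is not stated in the sources used here. The trimmed mean signal per array lay between 99.38 and 99.61, so the arrays share a scale, and the number of arrays limits the precision.

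Gene symbols came from the platform annotation, and only probe sets with 1 symbol were used (41091). Each gene took its probe set of highest mean log2(signal + 3). The test covered the 16099 genes that passed the 40th percentile of an array on 3 arrays or more. It was limma 3.58.1 (R 4.3.3) on 4 group means and 12 arrays, by lmFit, contrasts and eBayes with a trend, two-sided, with Benjamini-Hochberg adjustment over all genes and a threshold of 0.05. With 3 arrays a group, the smallest p of an exact permutation test is 0.1. The fit was tested on simulated data. Python 3.11.15 and matplotlib 3.10.9 made counts and figures.

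The genes, the role lists, the alternatives and the naming rule were chosen with earlier results of these data known. The rule named, per PMA comparison, up to 8 rises and 8 falls past the threshold without overlap, filled to 4 with uncalled genes. For the difference of responses it named up to 5 of each sign, filled to 3. Between lines it named up to 6 of each direction untreated and 3 after PMA. It further named the 5 brightest genes, up to 3 per role list, TRIM28 and the 3 genes on each side of the signal bound.

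Treated and control arrays of a line with 1 replicate number share a passage per the labels, which is where the pairing comes from. Deviations of paired arrays from their group means had correlations of 0.411, 0.206 and 0.157 (AsPC-1) and of -0.054, -0.126 and -0.059 (BxPC-3). Protein features of the genes were not analysed here.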

Additional observations from a re-analysis of the deposited data

Results flagged for a closer look

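The PMA response of ZNF750 was higher in BxPC-3 than in AsPC-1 by 2.68 on the log2 scale (limma interaction contrast, adjusted p = 0.0425), with 38.6, 50.8 and 58.6 in BxPC-3 control and 242, 320 and 295 after PMA, and no AsPC-1 array above 5.25. The AsPC-1 values were under the 40th percentile of each array, so the size of this difference depends on the pseudocount. The response of ZNF281 was lower in BxPC-3, by a difference of -1.43 (adjusted p = 0.0316), with a rise in AsPC-1 from 429 ± 74.4 to 939 ± 144 (SD, n = 3) and a difference of -0.30 in BxPC-3. Both were singled out because the test of the difference itself passed in the fit to all arrays. The ZNF750 call was lost in 14 of 21 alternatives and the ZNF281 call in 12 of 22. Without the trend in eBayes 0 ZNF genes were called for the difference.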

How the results depend on the processing

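Values below are counts of ZNF genes called, and the cause of each change was not tested unless given. In BxPC-3 the 37 calls for PMA became 106 with the arrays of that line alone, 59 with the replicate block, 23 with probe sets without s or x marks and 21 over genes at 30 or more in each group, a rule that removes genes that fell low. Leaving out 1 array gave 14 to 73. In AsPC-1 the 7 calls became 23 with the replicate block, 12 with a 60th percentile filter, 4 with median centring or no filter, 3 with the mean over probe sets, 2 without the trend or over genes at 30 or more in each group, and 0 with the arrays of that line alone. Leaving out 1 array gave 1 to 85. The 2 calls of the difference became 1 with the mean over probe sets, median centring, no filter, unmarked probe sets, a pseudocount of 1 or genes at 30 or more in each group, and 0 without the trend, and leaving out 1 array gave 0 to 15. Between lines the 102 untreated calls became 64 and the 96 calls after PMA became 60 over genes at 30 or more in each group, where fewer genes were counted. The 1 call of the KRAB machinery in BxPC-3 became 7 with the arrays alone, 3 with the replicate block, 2 with quantile normalization and 0 without the trend, and 0 to 5 when 1 array was left out, and its 0 calls in AsPC-1 became 0 to 8. For 74 values of named genes and 1685 comparisons with an alternative, 1508 kept side and direction, 141 lost the call, 36 gained it and 0 reversed.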
